A study of Macaca mulatta with 56 samples.

Results

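Mitochondrial import and assembly factors were defined by symbol: rows of the expression table whose macaque gene symbol begins with TIMM, TOMM, NDUFAF, TMEM126, or COA followed by a digit. The pattern found 37 Ensembl identifiers with 36 symbols among the 17807 identifiers of the table, since TOMM40L stood on 2 identifiers. All 37 were used in amygdala. In hippocampus, occipital cortex and prefrontal cortex a row was used when its mean level over these 3 regions, as log2(value + 1), lay within 2 of its amygdala level, because many identifiers of the amygdala columns and of the other columns do not hold the same transcript. This level rule admitted 29 of the 37 members (78.4%), close to the 78.8% it admitted of all identifiers with a symbol. The 8 members used in amygdala alone were NDUFAF1, NDUFAF2, TIMM21, TIMM23, TIMM44, TIMM50, TMEM126A and TOMM70.

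The data were messenger RNA libraries (TruSeq stranded, paired-end) of 4 brain regions from 14 female rhesus macaques (Macaca mulatta) aged 19.4 to 23.2 years. Every animal ate a Western-style diet with 36% of its calories as fat and 18.5% as sugar, and about 6 weeks after the diet began every animal had its ovaries and uterus removed. The 7 animals of the HT group then carried estradiol capsules, with serum estradiol of 82.1 pg/mL. The 7 animals of the OvH group carried empty capsules, with 6.6 pg/mL. The study ran for 30 months. This made 8 groups of 7 libraries (4 regions, 2 treatments), with all 4 regions taken from the same animals. Diet and surgery were common to both groups, so HT against OvH is a comparison of higher with lower serum estradiol in old, ovariectomized animals on that diet.

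Nearly all mitochondrial proteins are encoded in the nucleus and enter the organelle as unfolded precursors. The TOM complex of the outer membrane admits them, the TIM23 complex of the inner membrane takes those with a presequence, and small Tim chaperones carry hydrophobic proteins through the intermembrane space to the TIM22 complex, which inserts carriers. Assembly factors then join the subunits of the respiratory chain but are not part of the finished enzyme, those of complex I (NADH dehydrogenase) and of cytochrome c oxidase (complex IV) among them.

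Libraries held from 34.63 to 93.34 megareads (M). In amygdala they held 53.1 ± 9.29 M (SD, n = 7) in HT and 65.15 ± 14.92 M in OvH. The deposited values are read counts scaled so that every library has the same upper quartile. After this scaling the sum over all rows in amygdala was 71.12 ± 4.46 M for the HT animals, above the 61.36 ± 4.08 M of the OvH animals. The weakest member, 1 of the TOMM40L identifiers, had at least 27 reads in each amygdala library. All rows used of the neuronal, astrocyte, oligodendrocyte, microglial and endothelial marker lists had a group mean of 10 or more in every region. Deviations from the group means, over the 500 rows that varied most, were correlated with libraries of other regions within the same treatment. By the mean correlation per animal, 55 of 56 libraries were most like their own animal. A swap between an HT and an OvH animal could not be seen this way. The exception was the hippocampus library of animal 30, which was more like animal 43 (mean correlation 0.254) than like its own animal (0.056). Among hippocampus and prefrontal pairs animal 43 had the lowest correlation (-0.0145), so results that rest on hippocampus are given with and without animals 30 and 43. The hippocampus libraries of animals 33 and 40 had choroid plexus marker sums of 1327777 and 1465981, against medians of 3639 in OvH and 4238 in HT.

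Estradiol-treated animals had more transcript of many import and assembly factors in amygdala. Of the 37 members, all of which passed the filter on low values, 17 were higher in HT and 0 were lower (limma on log2(value + 1), Benjamini-Hochberg adjusted p under 0.05 over 16129 rows). Over all rows tested 6.16% were higher and 0.732% were lower. The members' median log2 difference, HT minus OvH, was 0.39, against 0.01 over all rows. The 17 differences ran from 0.46 to 1.48, and the 4 largest were those of TIMM8B, a small Tim chaperone, TMEM126A and TMEM126B, of complex I assembly, and TOMM7, of the TOM complex. The channel proteins TOMM40, TIMM23 and TIMM22 did not pass. In bulk tissue, a change in the number of cells of a type and a change in RNA per cell cannot be told apart. The plot of the amygdala values shows each animal.

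**Figure D1:**
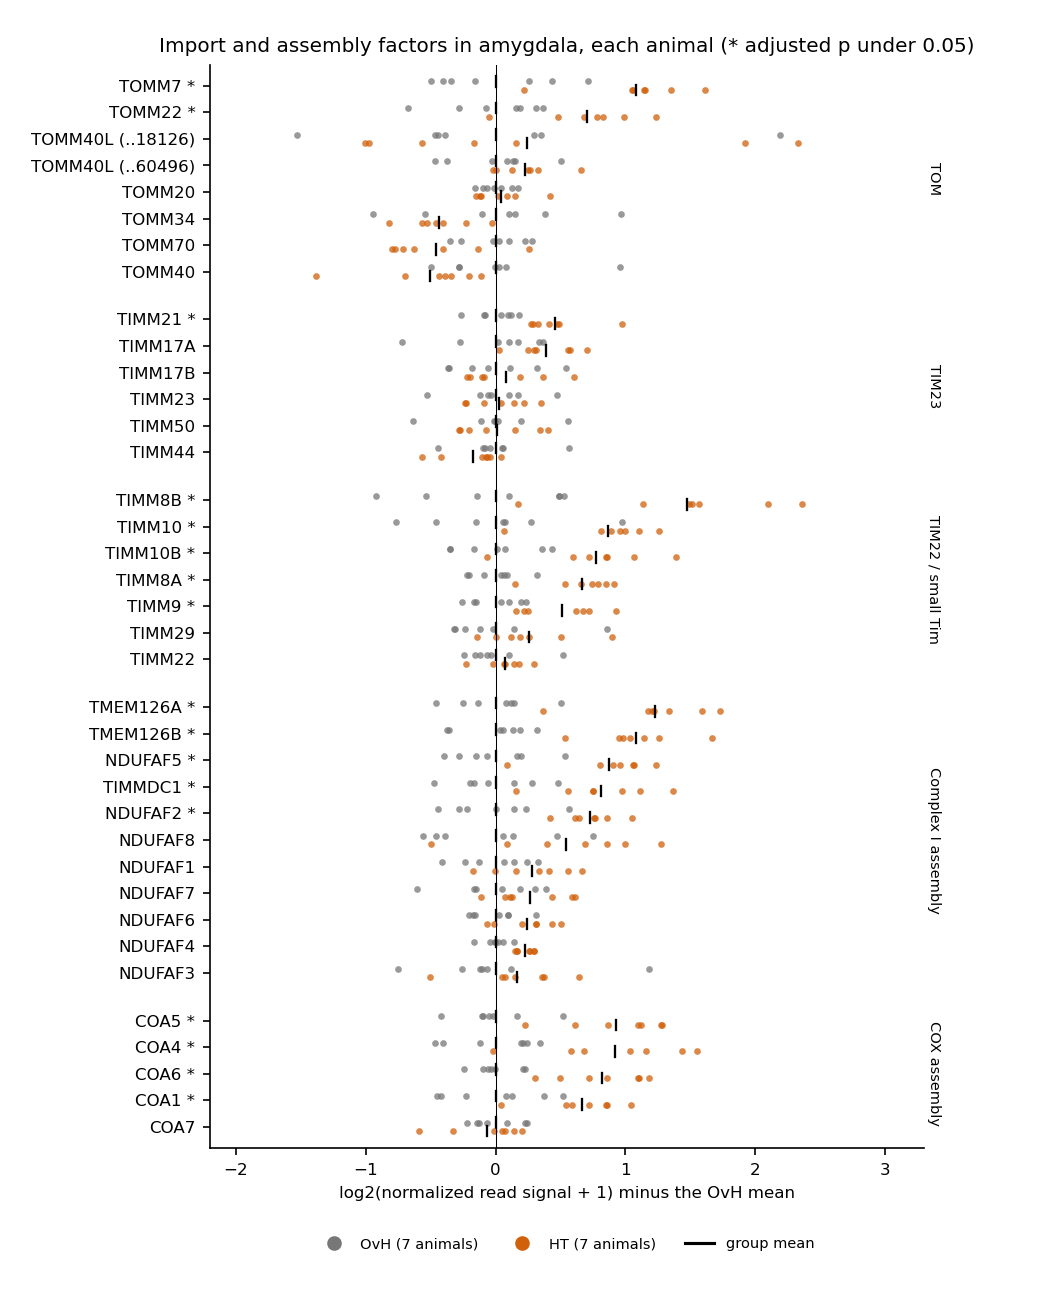
Normalized read signal of the 37 import and assembly rows in amygdala, as log2(value + 1) minus the OvH mean of the row (x axis), for 7 OvH animals (grey) and 7 HT animals (orange), with group means as black ticks; rows are grouped by role and an asterisk marks an adjusted p under 0.05. Of the rows, 17 carry an asterisk, all with the HT mean above 0, and 1 HT animal (39) usually lies nearest to the OvH animals; with libraries scaled to equal totals 12 rows were higher and TOMM40 and TOMM70 were lower.

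Among the 8 TOM and outer-membrane rows, 2 were higher. TOMM7, a small subunit that tunes the stability of the TOM complex, had values of 9971, 12646 and 23153 (lowest, median and highest) in OvH and 16401, 31228 and 43265 in HT. The HT animals lay above every OvH animal in 6 of 7 cases, and the groups overlapped through animal 39. The log2 difference was 1.08 ± 0.22 (SE; adjusted p = 0.00865). TOMM22, the central receptor and organizer of the complex, had a log2 difference of 0.71 (adjusted p = 0.0362). The other 6 rows did not pass, and 3 of them had HT means below those of OvH. TOMM70, the receptor for carrier precursors, ranged from 7530 through 9818 to 11701 in OvH and from 5532 through 6228 to 11496 in HT. Of the HT animals 5 lay below every OvH animal, while animal 39 lay near the OvH maximum. Its log2 difference of -0.46 ± 0.17 had an adjusted p of 0.116, nearest to the threshold of all members that did not pass. It passed without animal 32 or without animal 39. TOMM40, which forms the pore, had a difference of -0.51 (adjusted p = 0.185), with 7 of 7 HT animals below the OvH median. TOMM34, a cytosolic cochaperone of import, had -0.43 (adjusted p = 0.289). TOMM20, the presequence receptor, had 0.04, and the 2 TOMM40L identifiers had 0.24 and 0.23. TOMM40L is a paralog of TOMM40, and how reads shared by near-identical copies were counted is not given in the sources used here. The median of the 8 rows was 0.13, and -0.08 with equal totals.

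In the TIM23 group 1 of 6 rows was higher. TIMM21, which contacts the TOM complex and also takes part in building respiratory chain complexes, had a log2 difference of 0.46 (adjusted p = 0.0399), and all 7 HT animals lay above every OvH animal. It lost its call when any 1 of 11 animals was left out (adjusted p up to 0.0947). TIMM17A and TIMM17B, alternative partners of the channel, had 0.39 (adjusted p = 0.178) and 0.08. TIMM23 itself, the channel protein, had 0.03, with a 95% interval from -0.28 to 0.33. TIMM50, the presequence receptor on the intermembrane space side, had 0.01, and TIMM44, which tethers the import motor, had -0.18. The median of the group was 0.05, and -0.16 with equal totals.

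Of the 7 rows of the TIM22 group, 5 were higher, and these 5 were the small Tim chaperones found by the pattern. TIMM13, another small Tim chaperone, had no row under that symbol. TIMM8B had 712, 1451 and 1944 in OvH and 1519, 3849 and 6923 in HT. Its mean was 2.87 times as high in HT, the highest ratio of the 37 rows. The groups overlapped only through animal 39, the log2 difference was 1.48 ± 0.30 and the adjusted p was 0.00883. TIMM8A, a paralog that is mutated in a deafness and dystonia syndrome, had 927, 1117 and 1354 in OvH and 1200, 1816 and 2040 in HT (log2 0.66 ± 0.14, adjusted p = 0.00945). Animal 39 alone of the HT group fell within the OvH range.

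TIMM10, which with TIMM9 forms the main carrier chaperone, ranged from 887 through 1570 to 2972 in OvH and from 1582 through 2943 to 3623 in HT. OvH animal 32 was the highest of its group, and 3 of 7 HT animals lay above it; the log2 difference was 0.87 ± 0.23 (adjusted p = 0.0322). TIMM10B, which docks the chaperones on the TIM22 complex, had 6046, 7772 and 10436 in OvH and 7400, 13970 and 20199 in HT, and animal 39 was again the HT animal inside the OvH range. Its log2 difference was 0.77 ± 0.19 (adjusted p = 0.0227). TIMM9 had a log2 difference of 0.51 (adjusted p = 0.0379). The membrane-embedded components did not pass: TIMM22, the channel, had 0.07 (interval -0.20 to 0.34), and TIMM29, which links it to TOM, had 0.26 (interval -0.16 to 0.68). The group's median was 0.66, and 0.45 with equal totals.

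Complex I assembly factors had a positive difference in all 11 rows, and 5 passed. TMEM126B, a membrane protein of the intermediate assembly complex, had 2379, 3203 and 3835 in OvH and 4453, 6308 and 9756 in HT. The groups did not overlap, the mean was 2.14 times as high in HT and the log2 difference was 1.08 ± 0.16 (adjusted p = 0.00674). TMEM126A, its paralog, had 4190, 6073 and 8183 in OvH and 7415, 13409 and 19121 in HT. Here 6 of 7 HT animals lay above every OvH animal, with a log2 difference of 1.23 ± 0.19 (adjusted p = 0.00674).

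TIMMDC1, a relative of the TIM23 channel family that works in complex I assembly, had 3330, 4443 and 6469 in OvH and 5178, 7799 and 11953 in HT (log2 0.81 ± 0.18, adjusted p = 0.0132). NDUFAF5, which hydroxylates a complex I subunit, had 2005, 2515 and 3816 in OvH and 2802, 5113 and 6214 in HT (log2 0.87 ± 0.18, adjusted p = 0.00857). NDUFAF2, a late-acting factor, had 1534, 2101 and 3092 in OvH and 2789, 3535 and 4327 in HT (log2 0.73 ± 0.15, adjusted p = 0.0096). In each of these 3 genes animal 39 was the lowest HT animal and the other 6 lay above every OvH animal.

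NDUFAF4 differed little in size but without overlap. Its values were 4931, 5511 and 6093 in OvH and 6134, 6610 and 6792 in HT, the narrowest spread of all members in amygdala (SD of log2 0.09 and 0.07). The log2 difference of 0.23 ± 0.09 had an adjusted p of 0.134. With no filter on low values the same difference passed (adjusted p = 0.0198), and with equal totals it was 0.01. NDUFAF8, the partner that stabilizes NDUFAF5, had 0.54 (adjusted p = 0.254). NDUFAF1, of the same intermediate complex as TMEM126B, had 0.28 (adjusted p = 0.312), and NDUFAF3, the partner of NDUFAF4, had 0.16. NDUFAF6 had 0.24, and NDUFAF7, a methyltransferase for a complex I subunit, had 0.26. The median over the 11 rows was 0.54, and 0.33 with equal totals.

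Cytochrome c oxidase assembly factors passed in 4 of 5 rows. COA6, which takes part in delivering copper to the enzyme, had 1989, 2294 and 2753 in OvH and 2900, 4254 and 5317 in HT. The groups did not overlap (log2 0.82 ± 0.14, adjusted p = 0.00674). COA5 had 979, 1270 and 1881 in OvH and 1536, 2814 and 3192 in HT (log2 0.93 ± 0.18, adjusted p = 0.00783). COA4 had 825, 1310 and 1446 in OvH and 1129, 2345 and 3344 in HT (log2 0.92 ± 0.22, adjusted p = 0.0205). COA1, which acts on early intermediates of the enzyme, had 2569, 3702 and 5028 in OvH and 3613, 5776 and 7249 in HT (log2 0.66 ± 0.18, adjusted p = 0.0329). In COA5, COA4 and COA1 6 of 7 HT animals lay above every OvH animal and animal 39 was the lowest. COA7 did not pass, with -0.07 (interval -0.37 to 0.24). The group's median was 0.82, and 0.61 with equal totals.

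The 20 members that did not pass had log2 differences from -0.51 to 0.54 and adjusted p from 0.116 to 0.984. Complete separation of the 7 HT from the 7 OvH animals was seen in 4 members (COA6, NDUFAF4, TIMM21 and TMEM126B), against 0.806% of all rows. The members were higher in 14 of the 29 rows that the level rule admitted (median 0.51) and in 3 of the 8 that it did not (median 0.15). Over all rows tested, admitted or not, 6.16% were higher. That share was not counted separately for admitted and other rows, and the difference between the members of each kind was not tested. Summed over the 37 rows, the members took 0.319 ± 0.024% of the normalized signal in HT and 0.273 ± 0.0202% in OvH (SD, n = 7 each). The largest mean levels in amygdala were those of TOMM20 (15.13 as log2(value + 1)), TOMM7 (14.33) and TIMM10B (13.30), and the smallest those of 1 TOMM40L identifier (6.88), TIMM29 (9.97) and NDUFAF8 (10.01). These values are not per transcript length, so they give no order of abundance between genes.

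The same animals were high or low across most of the 17 genes called in these same libraries. That HT animals lie above OvH animals in them follows in part from that choice. HT animals 36 and 38 lay above every OvH animal in 17 of 17 genes, animals 40, 41 and 42 in 16 and animal 37 in 15. Animal 39 did so in 4, and lay below the OvH median in 4. Within OvH, animal 35 lay below the group median in 16 of the 17 genes and animals 33 and 43 in 15 each, while animals 31 and 34 did so in 0. The median log2 level over the 37 rows ran from 11.45 (animal 39) to 12.08 (animal 36) in HT and from 10.97 (animal 35) to 11.57 (animal 32) in OvH.

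Cytosolic ribosomal protein rows followed the same pattern of animals in amygdala. Of 73 tested, 63 were higher in HT and 0 lower, with a median log2 difference of 1.27. Their median level per library ran from 15.42 to 17.02 in HT, lowest in animal 39, and from 14.71 to 15.81 in OvH. All HT animals but 39 lay above every OvH animal in this level. A covariate of ribosomal level therefore nearly follows treatment, and a fit with it cannot separate treatment from that level. With the mean log2 level of the ribosomal rows as a covariate in limma, an alternative chosen after seeing the data, 0 of the 37 members and 0% of the 16129 rows passed. At an unadjusted p under 0.05 there were 2 members and 462 rows, and the members' median difference was 0.02. Oligodendrocyte markers were also higher in part: 3 of 13 rows passed (median 0.41), and their summed signal ran from 795421 to 1592215 in HT and from 357148 to 1265248 in OvH. With the mean log2 level of these markers as a covariate 9 members were higher, against 2.39% of all rows: COA5, COA6, NDUFAF5, TIMM8A, TIMM8B, TIMM10B, TMEM126A, TMEM126B and TOMM7. The members' median difference was then 0.45, and the 8 that no longer passed had log2 differences from 0.44 (TIMM21) to 0.83 (COA4) and adjusted p from 0.0656 to 0.171. Of the 11 neuronal markers 1 was lower and 0 were higher (median -0.26), the one being the synaptic vesicle gene SYP (30934 ± 8200 in HT and 50984 ± 14856 in OvH, log2 -0.71). Of the astrocyte and microglial markers 1 of 8 each was higher (S100B and AIF1), and of 7 endothelial markers 0 passed. The plot of levels per library shows the members beside both lists.

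**Figure D2:**
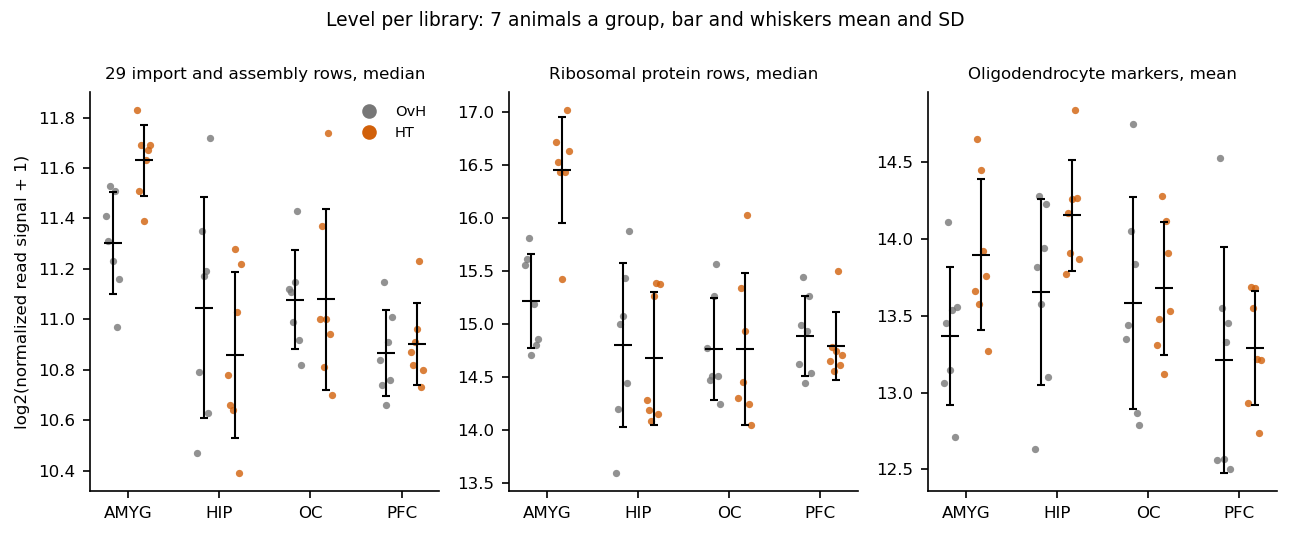
Per-library level in 4 regions, as log2(value + 1): the median of the 29 import and assembly rows usable everywhere (left), the median of the ribosomal protein rows (middle) and the mean of the oligodendrocyte markers (right), for OvH (grey) and HT (orange), 7 animals each, with mean and SD in black. In amygdala 5 of 7 HT points lie above all OvH points in the left panel and 6 of 7 in the middle panel, with animal 39 the lowest in both, and in the other regions the groups overlap in all 3 panels.

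The calls depended on the scaling, the model and the animals left out. Scaled to equal totals, 12 members were higher and 2 were lower, TOMM40 (-0.72, adjusted p = 0.0407) and TOMM70 (-0.67, adjusted p = 0.0418), where 3.84% of all rows were higher and 6.31% lower. This scaling moved the median of all rows from 0.01 to -0.20 and that of the members from 0.39 to 0.17. Higher rows made up 89.4% of all calls by the deposited scaling, 37.8% with equal totals, 66.3% by edgeR and 74.3% by DESeq2. By edgeR with TMM on the recovered reads 12 members were higher and 0 lower (4.19% and 2.13% of all rows), and by DESeq2 17 and 0 (8.08% and 2.79%). With no filter on low values 16 were higher (5.07%), NDUFAF4 among them but not TIMM10 or TOMM22. The 10 genes COA5, COA6, NDUFAF2, NDUFAF5, TIMM8A, TIMM8B, TIMMDC1, TMEM126A, TMEM126B and TOMM7 passed whichever 1 of the 14 animals was left out. The count of higher members was 10 without animal 33 (3.31% of all rows higher), 35 (3.78%) or 36 (3.59%). It was 11 without animal 38 (4.25%), beside 17 and 6.16% with all animals. In a fit of all 4 regions with the animal as a replicate block, 11 of the 29 admitted members were higher, against 5.69% of rows. COA6 (adjusted p = 0.0599), TIMM10B (0.0767) and TIMM9 (0.0916) lost their calls. This fit pools the residual spread of a row over the regions, and treatment is not paired in it.

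Other genes of import and assembly, from lists without the members, varied from list to list in amygdala, as the members' role groups did. Among 21 further import, processing and folding genes 3 were higher and 1 lower, with a median of 0.09. They were IMMP1L, an inner membrane peptidase (log2 1.41, adjusted p = 0.00674), HSPE1, the matrix cochaperonin (0.71, adjusted p = 0.00792), and DNAJC19, a cochaperone of the import motor (0.92, adjusted p = 0.0111). The lower one was PMPCA, a subunit of the presequence peptidase (-0.42, adjusted p = 0.0314), which is named here because it was the only one of the list that was lower by the deposited scaling. With equal totals 3 of the 21 were higher and 4 lower. The MICOS complex, which shapes the cristae, had 1 of 6 rows higher (APOOL, 0.47). Other complex I assembly factors had 1 of 11 higher (DMAC1, 0.84) and a median of -0.08, against 0.54 for the 11 members of that role; the difference between these lists was not tested.

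Further cytochrome c oxidase assembly factors were higher in 7 of 15 rows, with a median of 0.61. COX19, COX16 and COX11, which help to deliver copper or to join early subunits, had log2 differences of 0.88, 1.05 and 0.61. Assembly factors of complexes II, III and V were higher in 5 of 11 rows (median 0.46), led by SDHAF3 (1.2), UQCC2 (1.43) and LYRM7 (0.84). The finished enzymes' own subunits, listed by symbol, were higher in 13 of 32 rows for complex I (median 0.55). For cytochrome c oxidase 7 of 12 were higher (median 0.79). The lists follow symbols alone, so NDUFA4 (log2 1.46) counts with complex I here, whichever enzyme its protein belongs to. Regulators of mitochondrial gene expression and stress, such as PPARGC1A, NRF1, TFAM and ATF4, were higher in 1 of 11 rows (median 0.03), the stress-response transcription factor gene DDIT3 (0.86, adjusted p = 0.00854). With equal totals 13 complex I subunits were higher and 4 lower, 5 of the 15 cytochrome c oxidase factors were higher and 1 lower, and 2 of the 11 factors of complexes II, III and V were higher. With the oligodendrocyte covariate these lists had 5, 2 and 1 higher rows, with medians of 0.47, 0.56 and 0.38. The bar chart of the lists sets the shares by the deposited scaling side by side.

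**Figure D3:**
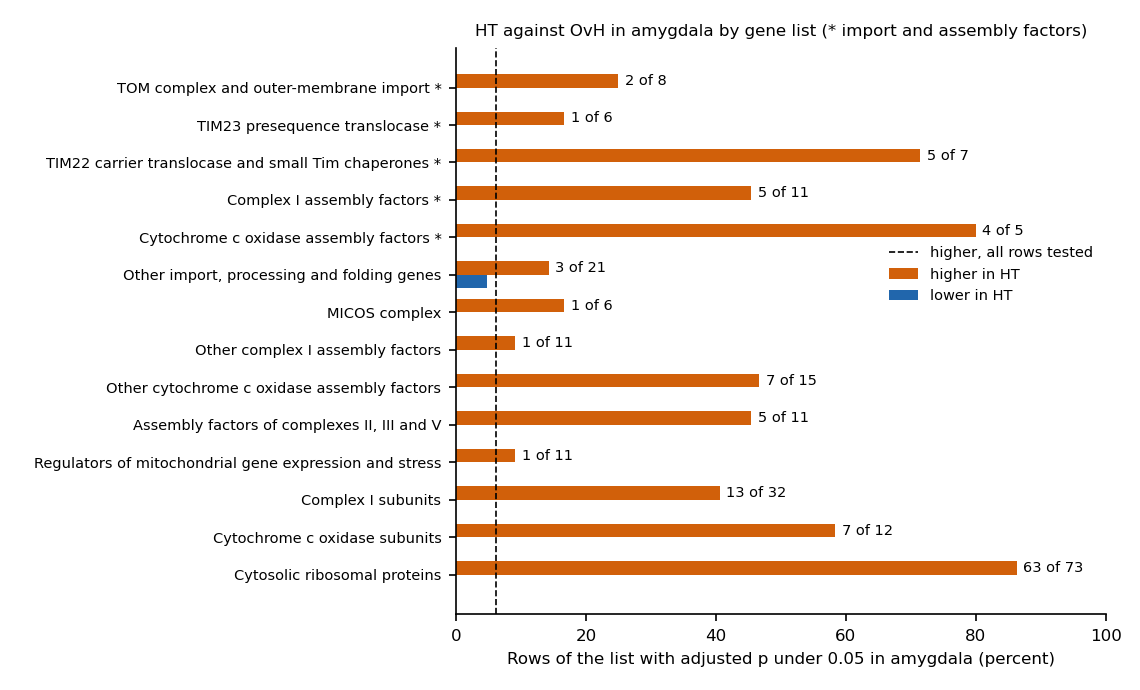
Share of rows in each gene list with an adjusted p under 0.05 for HT against OvH in amygdala (x axis, percent), higher in orange and lower in blue, with the number higher of the number tested at each bar; asterisks mark the 5 role groups of the import and assembly factors. The dashed line is the 6.16% of all rows that were higher. The bars of the small Tim, cytochrome c oxidase assembly (members) and ribosomal lists reach farthest to the right. Those of the TIM23, MICOS, other complex I assembly and regulator lists rest on 1 row each.

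Outside amygdala no import or assembly factor passed for HT against OvH. In hippocampus 0 of 29 passed by limma (background 0%), 1 had an unadjusted p under 0.05, and edgeR and DESeq2 called 0 members. Of the 29 differences 5 were positive, and the median was -0.15; without animals 30 and 43 it was -0.10 and without animals 33 and 40 -0.18, again with 0 members called. Leaving out 1 animal moved it between -0.05 (without animal 43) and -0.23 (without animal 42). The smallest p were those of COA7, at 931, 1051 and 1419 in OvH and 802, 881 and 996 in HT (log2 -0.29, unadjusted p = 0.033, adjusted p = 1), and of NDUFAF4 (-0.32, interval -0.64 to 0.01). The 7 HT animals all lay below the OvH median of COA7, and 5 of them below every OvH animal. Beside this, the ribosomal rows had a median of -0.17 in hippocampus with 2 of 58 differences positive, and the oligodendrocyte markers a median of 0.48 with 9 of 9 positive. The members' median was -0.01 with the ribosomal covariate and -0.18 with the oligodendrocyte covariate, with 0 members called in either.

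In occipital cortex 0 of 29 passed (background 0%), 0 had an unadjusted p under 0.05 by limma, and edgeR and DESeq2 called 0 members. The median was 0.03, and the members nearest to the threshold were NDUFAF8 (-0.33, interval -0.72 to 0.06) and TOMM40 (-0.20, interval -0.50 to 0.10). The occipital library of HT animal 40 stood apart: the members took 0.272% of its signal, against a group median of 0.155%, and its ribosomal median was 16.03, against 14.45. Without it the members' median was -0.11, with 3 of 29 differences positive in place of 18. In prefrontal cortex the counts were likewise 0 by limma (background 0%), edgeR and DESeq2, and 0 at an unadjusted p under 0.05. The median was 0.05, with TIMM17A at 0.11 (interval -0.06 to 0.28) and TIMM9 at 0.21 (interval -0.12 to 0.53). Averaged per animal over these 3 regions, 0 of 29 passed (background 0%), 0 had an unadjusted p under 0.05, and the median was -0.03. It was -0.04 without animals 30 and 43 and -0.11 without animals 33 and 40, with 0 called in both. A miss of the threshold does not show that the groups were alike. For TMEM126B the intervals reached from -0.99 to 0.39 in hippocampus, from -0.52 to 0.99 in occipital cortex and from -0.21 to 0.41 in prefrontal cortex, beside 0.74 to 1.42 in amygdala.

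**Figure D4:**
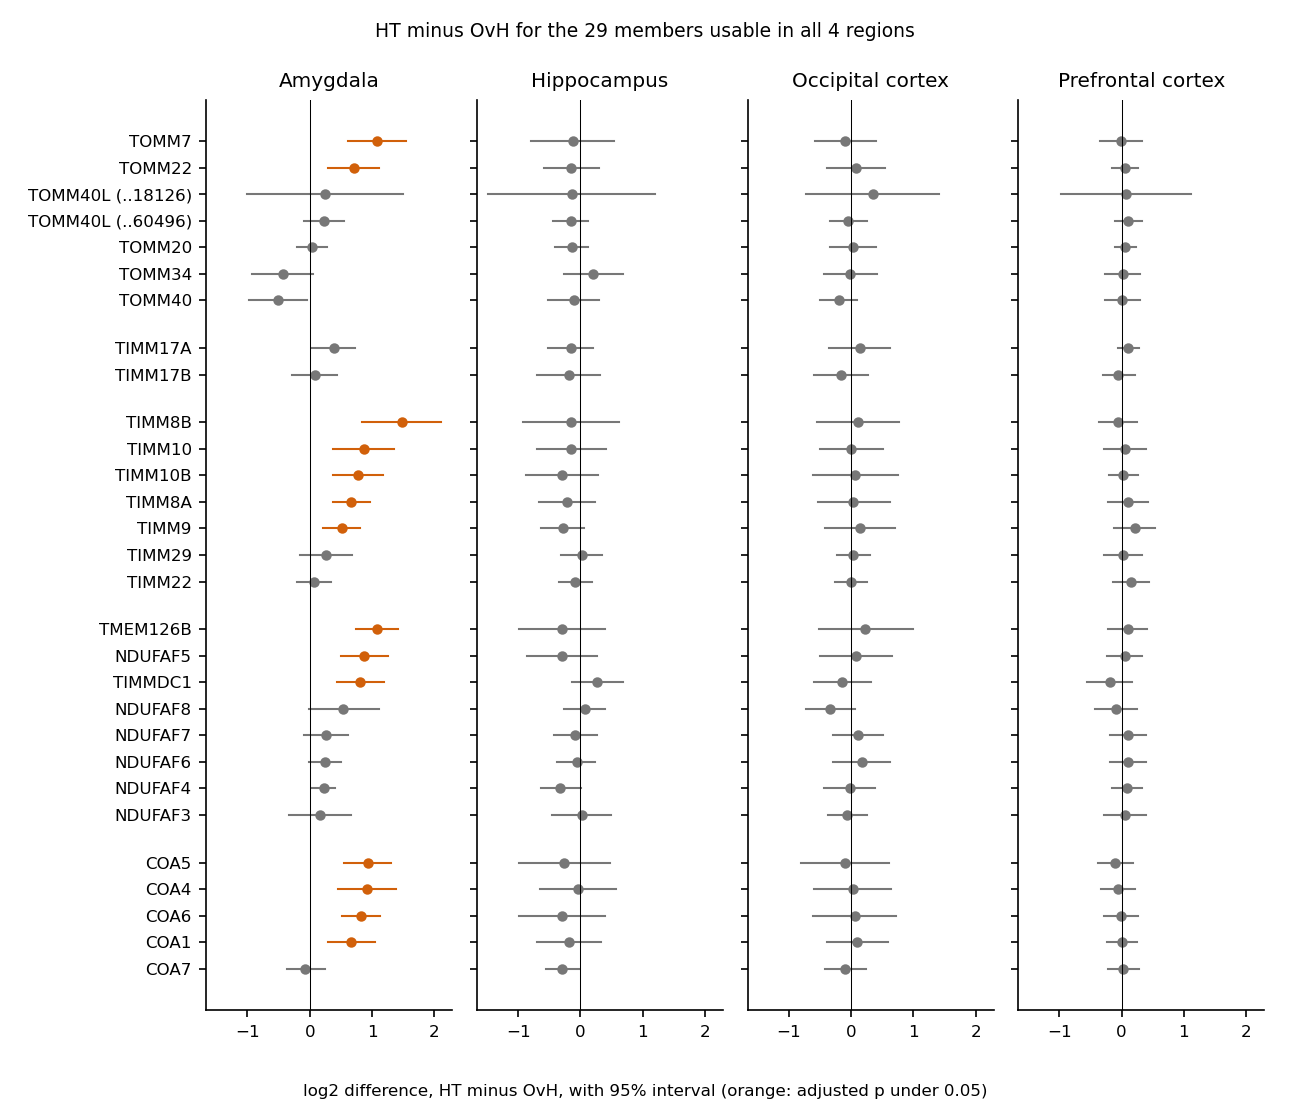
Difference of HT minus OvH in log2(value + 1) with its 95% interval (x axis) for the 29 import and assembly rows usable in all regions (y axis), 1 panel per region, 7 animals a group; orange marks an adjusted p under 0.05. In amygdala 14 of the 29 are orange, and in the other 3 regions 0 are.

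Whether the amygdala difference itself exceeded that of the other regions was tested within animals, on each animal's amygdala value minus its mean over the other 3 regions. In this test 0 of 29 members passed, and 0% of the 13520 rows did, although 18 members had an unadjusted p under 0.05 and 27 of 29 differences were positive (median 0.49). The smallest adjusted p was 0.0609, shared by TIMM8B (1.51, interval 0.68 to 2.33), TOMM7 (1.16, 0.53 to 1.79), COA5 (1.07, 0.54 to 1.61), TMEM126B (1.07, 0.51 to 1.63), TIMMDC1 (0.83, 0.43 to 1.23) and TIMM8A (0.69, 0.31 to 1.07). TOMM34 and TOMM40 had the negative differences, -0.51 and -0.41. Single animals decided this count: 9 members passed without animal 30 (5.05% of rows), 12 without animal 31 (4.72%), 7 without animal 32 (3.68%), 13 without animal 39 (7.04%) and 13 without animal 40 (5.81%). Leaving out any 1 of the other 9 animals gave 0, as did leaving out animals 30 and 43 together (0.0074% of rows, median 0.51) or animals 33 and 40 together. With equal totals 1 member passed, the median was 0.26 with 19 of 29 positive, and 0.888% of rows were higher and 2.85% lower.

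Levels in amygdala and elsewhere were part of how rows were chosen, so they are given as a description. TMEM126B (-1.79, the other regions minus amygdala on the log2 scale) and NDUFAF8 (1.5) were the members nearest the limit of 2 from inside, and TIMM44 (-2.38) and TIMM23 (-3.02) the nearest from outside. The members beyond these differed by up to 11.35, as in TOMM70, whose mean log2(value + 1) was 13.00 in amygdala and 2.27, 1.16 and 1.53 in hippocampus, occipital and prefrontal cortex. An admitted row can still hold another transcript outside amygdala, which the level rule cannot show. Of the genes with the smallest adjusted p within animals, TIMM8B (-1.17), COA5 (-1.19), TIMM8A (-1.38) and TMEM126B differed by more than 1 in level. TOMM7 (-0.54) and TIMMDC1 (-0.37) differed by less.

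Differences among the 3 regions other than amygdala were tested over 14 animals with the animal as a block. Between occipital and prefrontal cortex 11 of the 29 members were higher in occipital cortex and 1 was lower, where 19.7% of all rows were higher and 28.2% lower. The members' median was 0.21, against -0.06 over all rows. Among the 11 were both TIM23 partners, TIMM17A (0.35) and TIMM17B (0.47, adjusted p = 0.00396), the small Tim genes TIMM8A (0.38) and TIMM9 (0.35), NDUFAF5 (0.48, adjusted p = 0.0125) and COA4 (0.41, adjusted p = 0.0426). COA7 ranged from 1069 through 1288 to 1950 in occipital cortex and from 763 through 1040 to 1335 in prefrontal cortex. Although these ranges overlap, it was higher in occipital cortex in 14 of 14 animals (log2 0.41 ± 0.08). The member that was lower, NDUFAF8, ranged from 1243 through 2426 to 3692 in occipital and from 2791 through 3795 to 5792 in prefrontal cortex. It was lower in 14 of 14 animals (log2 -0.62 ± 0.11, adjusted p = 4.3e-05), in the opposite direction to its partner NDUFAF5. Without animals 33 and 40 the count of higher members was 6 (background 19.1%), and NDUFAF5 and COA4 were not among them. COA4 also lost its call without any 1 of 7 animals. Cell type markers differed between these regions too: 4 of 11 neuronal, 4 of 9 oligodendrocyte and 4 of 7 endothelial markers were higher in occipital cortex, and 4 of 7 microglial markers were lower. Their part in the members' regional differences was not tested, here or between the other regions.

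Hippocampus differed from prefrontal cortex in few members. TOMM34 and TIMM22 were higher and NDUFAF8 was lower, 3 of 29, where 20.9% of all rows were higher and 22.6% lower. TOMM34 ranged from 1585 through 2975 to 4451 in hippocampus, from 1697 through 2108 to 3049 in prefrontal cortex and from 1110 through 2019 to 2760 in occipital cortex. The ranges overlap, but hippocampus was the higher in 13 of 14 animals against prefrontal cortex (log2 0.47 ± 0.10, adjusted p = 0.000237) and in 12 of 14 against occipital cortex (0.63 ± 0.10, adjusted p = 2.52e-06). TIMM22 was 0.22 higher (adjusted p = 0.0109) and NDUFAF8 was -0.35 (adjusted p = 0.0129), lower in 12 of 14 animals. Without animals 30 and 43, 6 members were higher (24.7% of rows) and 1 lower (27%), with NDUFAF3, TIMM10, TIMMDC1 and TOMM40 added. Leaving out animal 30 alone gave 7 members, 6 higher (23% of rows) and 1 lower (24.7%). Leaving out animal 43 alone gave 5, 3 higher (22.4%) and 2 lower (24.7%). With equal totals 1 member was higher and 2 were lower (16.4% and 27.1% of rows), and the members' median was -0.01 in place of 0.06. Beside this, 8 of 9 oligodendrocyte, 7 of 7 microglial and 5 of 7 astrocyte markers were higher in hippocampus, and 5 of 11 neuronal markers were lower.

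Between hippocampus and occipital cortex 4 members were higher in hippocampus and 7 lower, with 28.1% and 22.6% of all rows. The higher ones were TOMM34, TIMM10 (0.37, adjusted p = 0.0295), NDUFAF8 (0.27, adjusted p = 0.0462) and TIMM22 (0.19). The lower ones were led by NDUFAF5 (-0.69 ± 0.16, adjusted p = 0.000455), COA7 (-0.49 ± 0.08, adjusted p = 2.53e-06) and TIMM10B (-0.44, adjusted p = 0.0494). NDUFAF5 ranged from 943 through 1408 to 3535 in hippocampus and from 1760 through 2255 to 7391 in occipital cortex, lower in hippocampus in 12 of 14 animals. TIMM29 was lower in 14 of 14 animals (-0.34). Without animals 30 and 43, 5 were higher (29.8% of rows) and 12 lower (25.6%). Without animal 43 alone the total was 16, with 4 higher (28.3% of rows) and 12 lower (24.2%). With equal totals 2 were higher and 9 lower (25.4% and 25.2% of rows), and with no animal block 1 and 6 (24.1% and 20.1%). All 7 microglial markers (median 1.15), 4 of 7 astrocyte and 3 of 3 choroid plexus markers were higher in hippocampus, and 7 of 11 neuronal markers were lower. TIMM10B lost its call without any 1 of 11 animals, NDUFAF8 without any 1 of 9 and TIMM10 without any 1 of 5. These comparisons share libraries with each other, so the same hippocampus, occipital and prefrontal values enter more than 1 of them.

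**Figure D5:**
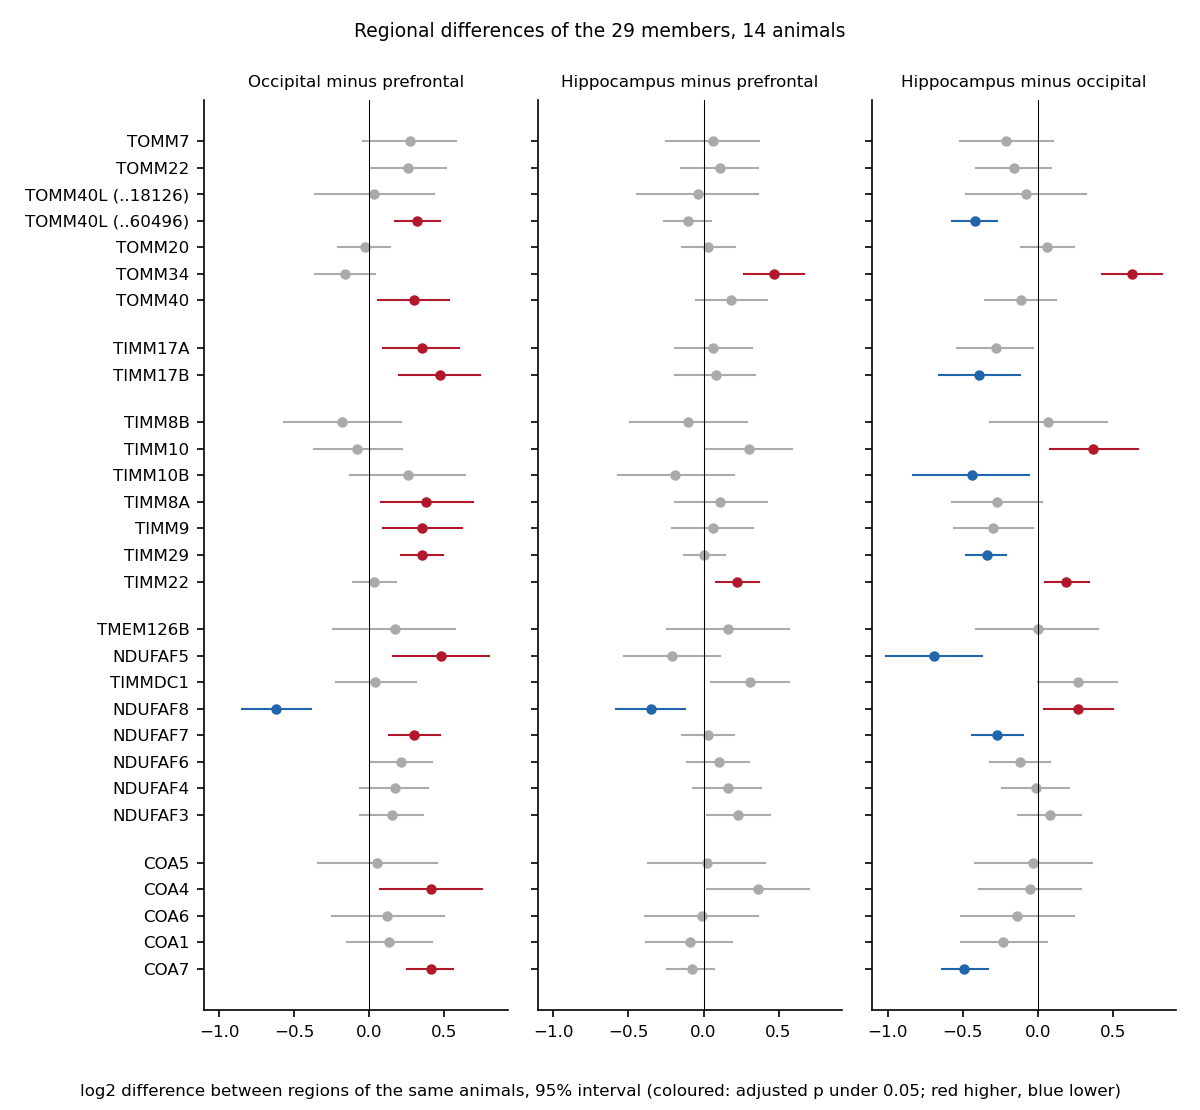
Difference between regions of the same 14 animals in log2(value + 1) with its 95% interval (x axis) for the 29 import and assembly rows (y axis), 1 panel for each pair of regions; red marks higher and blue lower at an adjusted p under 0.05, and grey rows did not pass. Occipital cortex against prefrontal cortex has 11 red rows and 1 blue row (NDUFAF8), and TOMM34 is red in both hippocampus panels.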

How the data were processed

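Messenger RNA was measured in 56 libraries. The authors deposited 1 table of normalized read signal for 17807 Ensembl identifiers. Per the submitters' processing notes, FastQC 0.1.1.2, Trimmomatic, STAR 2.7.3a with Mmul_10 and edgeR 3.28.0 were used; the read counter, annotation and strand setting are not given in the sources used here. The upper quartile was 2818.9375 in all libraries. Undoing the scaling gave whole reads for 100% of values within 0.01 reads. The table had 0 columns of unknown sample.

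Groups came from the labels, and symbols from a table of Ensembl identifiers (15123 matched). Rows with a mean of 10 or more were tested, two-sided, by limma 3.58.1 (R 4.3.3, intensity trend) on log2(value + 1), each region separately; the animal was a fixed block between regions. On the recovered reads edgeR 4.0.16 called 1018 rows in amygdala (675 higher, 343 lower); DESeq2 1.42.0 was also run. The code was tested on simulated data. For HT against OvH the p-values judge a difference against the spread between animals of a group. Between regions the block removes differences between animals, so there they rest on how regional differences vary from animal to animal.

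The animal pairs the libraries across regions. Deviations of same-animal libraries correlated at means from 0.287 to 0.494, lowest for animal 30 (hippocampus and occipital cortex, -0.233); the block correlation was 0.227.

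Members, lists and tests were chosen with earlier results of these data known. All 37 members are given by their amygdala difference. Fuller values were given for 14 called members, the 2 nearest misses, 2 members per other region, up to 3 per direction between regions, up to 3 per list, and the highest and lowest 3 levels; TOMM34, NDUFAF5, COA7, NDUFAF8 and TIMM29 details and PMPCA were added after values were seen. No gene coordinates, lengths or sequences of Mmul_10 were used here.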

Additional observations from a re-analysis of the deposited data

Results flagged for a closer look

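In 1 of 42 groups of 7 animals tested for a value far from the others, the highest animal stood apart: TIMM21 in the amygdala of HT animal 37 had 2611, and its gap to the next animal was 0.743 of the group's range (above Dixon's critical value for 7 samples). Chance flags about 1 in 20 groups. The other HT animals lay at 1604 or more, so all 7 HT animals remained above the highest OvH animal, 1505.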

How the results depend on the processing

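Of the amygdala calls, 9 of 17 passed with the oligodendrocyte covariate, while the members' median went from 0.39 to 0.45. With the ribosomal covariate 0 passed, the median was 0.02, and TOMM7 (-0.0006), TOMM22 (-0.10) and TIMM10 (-0.14) changed sign. This covariate nearly followed treatment in amygdala, so the fit cannot separate them, and the cause was not tested. Equal totals gave 2 lower members instead of 0. Leaving out 1 animal gave 10 to 18 called members, 10 to 17 higher and 0 to 1 lower. In those fits 3.31% to 10.1% of all rows were higher and 0.0868% to 4.54% lower. In the fit of all regions with the replicate block 11 of 29 were called, against 14 of the same 29 with amygdala fitted alone. Treatment is not paired in the block fit, which pools the residual spread over the regions. The count for the amygdala effect minus that of the other regions was 0, 1 with equal totals, and 0 to 13 leaving out 1 animal. The shares of all rows that were higher were 0%, 0.888% and 0% to 7.04%.

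Between hippocampus and prefrontal cortex the count was 3, 7 without animals 30 and 43, and 3 to 7 leaving out 1 animal. In those fits without 1 animal 18.3% to 23% of all rows were higher and 20% to 24.7% lower. Between occipital and prefrontal cortex the count was 12, 7 without animals 33 and 40, and 8 to 13 leaving out 1 animal. Here the fits without 1 animal had 18.1% to 20.2% of all rows higher and 26% to 28.5% lower. Between hippocampus and occipital cortex the count was 11, 7 with no replicate block, 17 without animals 30 and 43, and 8 to 16 leaving out 1 animal. The fits without 1 animal had 26.2% to 29.1% of all rows higher and 21.2% to 24.2% lower. In hippocampus, occipital cortex, prefrontal cortex and their mean the count for HT against OvH was 0 in every setting run. The lowest median of a member over the amygdala libraries was 99 reads. The level rule is a coarse check of row names outside amygdala.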
